A study of Mus musculus with 28 samples.

Results

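The cytochrome P450 family 4 enzymes add a hydroxyl group to the far end of a fatty acid chain, the omega carbon. The 10 genes described here are Cyp4a10, Cyp4a12a, Cyp4a12b, Cyp4a14, Cyp4a31, Cyp4a32, Cyp4f13, Cyp4f14, Cyp4f15 and Cyp4v3. They were taken by symbol from the deposited tables of raw read counts, which hold 23393 genes, and all 10 passed the filter on low counts that left 12607 genes for testing. Liver RNA came from 28 129svj mice, 11 to 13 months old, with 7 animals in each of 4 groups. Of these, 14 were wild type (WT) and 14 heterozygous (HZ) at Sirt6, the gene of a nuclear NAD-dependent deacylase. They received by oral gavage either 0.5% carboxymethylcellulose alone (vehicle) or 50 mg/kg of the compound WY-14643 (WY) in it, and livers were taken after 12 h. WY is a synthetic agonist of PPARα, the fatty acid-sensing nuclear receptor of the liver. The sources used here do not say how the Sirt6 allele was made or give the sex of the animals.

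Omega-hydroxylation opens a side route of fatty acid breakdown. A microsomal P450 fed with electrons by NADPH-cytochrome P450 reductase makes the omega-hydroxy acid, alcohol and aldehyde dehydrogenases turn it into a dicarboxylic acid, and peroxisomes shorten that acid by beta-oxidation. Enzymes of the 4A subfamily act on medium and long chain fatty acids and on arachidonic acid, and several of their genes are classical PPARα targets in rodent liver. Enzymes of the 4F subfamily act on leukotriene B4 and other eicosanoids as well as on fatty acids.

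Sirt6 itself, the gene by which the animals were genotyped, is given first. It was at 1.91 to 3.53 CPM (read counts scaled by library size and TMM factor) in WT vehicle and 0.882 to 1.38 CPM in HZ vehicle livers, and at 2.27 to 4.18 CPM in WT WY and 1.29 to 2.29 CPM in HZ WY livers. HZ against WT was -0.97 ± 0.17 on the log2 scale under vehicle (adjusted p = 0.00696) and -1.04 ± 0.16 under WY (adjusted p = 0.00721, edgeR). Gene counts per library ranged from 15795201 to 20020078. The first principal component separated WY from vehicle livers, and 5 HZ livers (vehicle animals 30 and 38 and WY animals 14, 15 and 21) stood highest on the second, with scores of 8.90 to 20.7 against at most 2.68 in the other 23. Every WY liver was in one deposited table with animal numbers 2 to 25. Every vehicle liver was in the other with numbers 29 to 39 and 71 to 78, so that treatment, table and range of numbers cannot be told apart. Within vehicle the numbers 71 to 78 held WT animals 74, 76 and 78 but only HZ animal 71, so this range is unevenly split between genotypes. Transcripts of the Y-linked genes Ddx3y, Uty, Kdm5d and Eif2s3y were counted in all 28 livers, with Ddx3y at 88.9 CPM or more, and Xist did not exceed 0.888 CPM. The hepatocyte markers Alb, Ttr, Apoa1, Apob and Cps1 summed to between 44628 and 109214 CPM.

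On GRCm38, with GENCODE M21 gene models, the 6 Cyp4a genes lie in 1 cluster on chromosome 4. In genome order they are Cyp4a12a (115299046 to 115332815), Cyp4a12b (115411624 to 115439034), Cyp4a14 (115486200 to 115496142), Cyp4a10 (115518264 to 115533649), Cyp4a31 (115563649 to 115579015) and Cyp4a32 (115600969 to 115621602). Cyp4a14 is on the minus strand and the other 5 are on the plus strand. The 3 Cyp4f genes are on chromosome 17, Cyp4f15 at 32685627 to 32703352 on the plus strand, and Cyp4f14 (32905070 to 32917342) and Cyp4f13 (32924688 to 32947402) 7345 bases apart on the minus strand. Cyp4v3 stands alone on chromosome 8, at 45304944 to 45333216 on the minus strand. All 10 are annotated as protein coding.

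What the genes share, and how far they can be told apart by reads, is visible in their coding exons. The first set shows the 30 coding bases that encode the haem-binding cysteine signature of P450 enzymes, found once in frame in each of the 10 coding sequences. Capitals mark the 18 bases that are the same in all 10.
Cyp4a10: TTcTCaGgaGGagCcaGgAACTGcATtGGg
Cyp4a14: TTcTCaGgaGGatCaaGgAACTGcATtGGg
Cyp4a12a: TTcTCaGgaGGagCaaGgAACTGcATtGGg
Cyp4f13: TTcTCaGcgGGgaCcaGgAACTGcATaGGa
Cyp4f14: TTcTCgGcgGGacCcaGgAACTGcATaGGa
Cyp4f15: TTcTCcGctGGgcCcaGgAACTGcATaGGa
Cyp4v3: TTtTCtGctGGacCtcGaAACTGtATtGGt
Cyp4a31 and Cyp4a32 carry the same 30 bases as Cyp4a10, and Cyp4a12b the same as Cyp4a12a. Over the whole coding sequence Cyp4a12a and Cyp4a12b are 98.5% identical, with 23 differing bases in 1524 and a longest identical run of 342 bases. Cyp4a10 is 96.6% identical to Cyp4a31 and 97.2% to Cyp4a32, while Cyp4a14 is 75.4% identical to Cyp4a10. Cyp4f14 and Cyp4f15 are 82.1% identical, and Cyp4v3 is 49.9 to 52.5% identical to the other 9.

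The second set shows the 60 coding bases in which each group of close copies differs most, since only such stretches allow a read to be placed. Capitals mark the bases that differ within the group. The stretch of Cyp4a12a and Cyp4a12b spans coding positions 624 to 683, counted from 1 at the A of the start codon.
Cyp4a12a: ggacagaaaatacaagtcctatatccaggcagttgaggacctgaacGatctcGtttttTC
Cyp4a12b: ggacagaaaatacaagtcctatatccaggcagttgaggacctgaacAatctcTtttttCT
The stretch of Cyp4a10, Cyp4a31 and Cyp4a32 spans coding positions 200 to 259 and holds 9 differing positions.
Cyp4a10: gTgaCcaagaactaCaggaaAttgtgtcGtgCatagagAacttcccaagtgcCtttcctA
Cyp4a31: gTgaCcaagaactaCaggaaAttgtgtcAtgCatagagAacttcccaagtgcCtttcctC
Cyp4a32: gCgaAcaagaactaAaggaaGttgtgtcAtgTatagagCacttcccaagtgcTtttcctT
Of all windows of 75 bases in the longest transcript, 40.8% in Cyp4a12a, 41.3% in Cyp4a12b, 30.4% in Cyp4a32, 19.1% in Cyp4a10 and 13.9% in Cyp4a31 also occur in the transcript of another gene, against 0% in Cyp4a14 and Cyp4f13. The sources used here do not give the read length, and with windows of 50 bases the shares were larger (48.9% in Cyp4a12a and 30.5% in Cyp4a10). Reads lying wholly in shared stretches would not be placed uniquely or counted, so the levels of Cyp4a12a, Cyp4a12b, Cyp4a10, Cyp4a31 and Cyp4a32 are uncertain. How many reads were lost in this way is not known. Cyp4v3 shared 6.40% of its windows of 75 bases with the gene model Gm45753. The reference is of the C57BL/6J strain and the animals were 129svj. Whether bases that differ between the strains move reads from one copy to another was not tested.

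Compared per length, as CPM per kb of exon, Cyp4a14 stood highest in 27 of 28 livers, Cyp4a10 had rank 2 in 27 and Cyp4a12a rank 3 in 27. In WT vehicle livers the mean levels were 2584 CPM per kb for Cyp4a14, 1099 for Cyp4a10, 286 for Cyp4a12a, 127 for Cyp4v3, 106 for Cyp4f14 and 82.8 for Cyp4f15. They were 52.2 for Cyp4a32, 41.6 for Cyp4a31, 16.7 for Cyp4a12b and 13.1 for Cyp4f13. The ranges of the livers did not overlap between Cyp4a14, Cyp4a10, Cyp4a12a and Cyp4v3 in that order, and from Cyp4v3 downwards each gene overlapped with the next. The single exception to the ranks of Cyp4a14, Cyp4a10 and Cyp4a12a was the vehicle liver of HZ animal 38. There Cyp4a12a (279 CPM per kb) stood above Cyp4a14 (241), Cyp4v3 (164) and Cyp4a10 (157). Per kb of exon Cyp4v3 had rank 4 in 23 of 28 livers. Under WY Cyp4f14 moved from rank 5 to rank 8, with mean levels of 57.6 CPM per kb in WT and 58.8 in HZ livers. The level of Cyp4f13 depends on the length used and was 33.2 CPM per kb in WT vehicle livers with its longest transcript in place of all its exons. The levels of close copies depend on it too, since all exon bases include shared stretches. Counting as length only windows found in no other gene's transcript, mean Cyp4a12a in WT vehicle livers was 498 CPM per kb. Under WY Cyp4a32 then had rank 4 by mean, at 133 in WT and 123 in HZ livers. Cyp4v3 had rank 5 there, at 116 and 115, and kept rank 4 under vehicle. Cyp4a14, Cyp4a10 and Cyp4a12a kept their ranks by mean in every group.

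**Figure D1:**
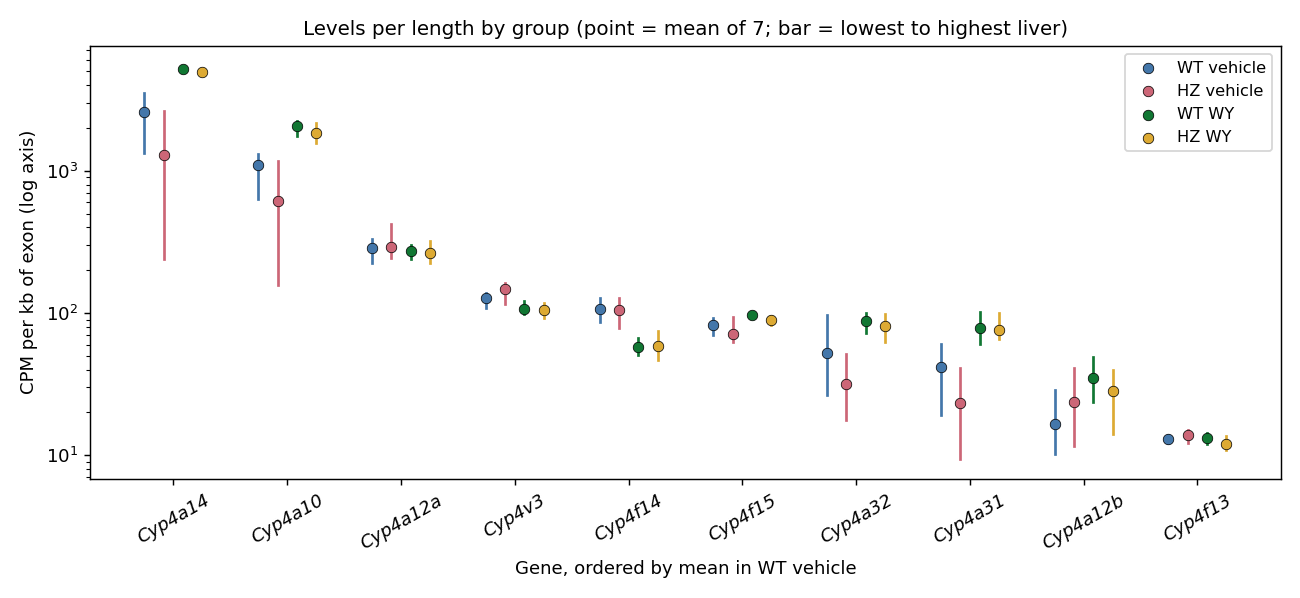
Level of each gene per kb of exon (log axis) in the 4 groups, with the mean of 7 livers as a point and the lowest to the highest liver as a bar. Cyp4a14 and Cyp4a10 stand above the other genes in every group mean, and their bars are longest in HZ vehicle livers.

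Together the 10 genes took 1.07 ± 0.280% of the gene counts in WT vehicle livers (SD, n = 7), 0.656 ± 0.279% in HZ vehicle livers, 1.96 ± 0.0806% in WT WY livers and 1.89 ± 0.0487% in HZ WY livers. The lowest share was 0.308%, in a HZ vehicle liver, and the highest was 2.03%, in a WT WY liver. The 6 Cyp4a genes made up nearly all of it, with 0.975%, 0.551%, 1.88% and 1.81% in the same order, and the 3 Cyp4f genes gave 0.0494%, 0.0481%, 0.0417% and 0.0407%.

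Cyp4a14, a PPARα target and the most abundant of the family, rose with WY in both genotypes. In WT livers it ran from 3469 over a median of 7201 to 9110 CPM under vehicle and from 12791 over 13379 to 14253 CPM under WY. In HZ livers it ran from 626 over 3112 to 6858 CPM under vehicle and from 12375 over 13109 to 13239 CPM under WY. Every WY liver of either genotype thus lay above every vehicle liver. The highest vehicle liver was 2.63-fold above the lowest in WT and 10.9-fold in HZ, against 1.11-fold and 1.07-fold under WY. The log2 fold change with WY was 1.00 ± 0.30 in WT (SE, 1.99-fold, adjusted p = 0.00626) and 1.94 ± 0.31 in HZ (3.83-fold, adjusted p = 6.45e-06), by edgeR's quasi-likelihood test with Benjamini-Hochberg adjustment over all 12607 genes. With WY, 8 of the 10 genes passed at an adjusted p below 0.05 in WT, 6 of them higher and 2 lower, where 54.1% of all tested genes passed (27.4% higher and 26.7% lower). In HZ 8 passed as well, 5 higher and 3 lower, where 55.7% of all genes did (29.3% higher and 26.4% lower). Most tested genes thus passed in both comparisons, and 8 of 10 is to be read against that background.

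Cyp4a10, of the same cluster and likewise a PPARα target, followed the same pattern. Its WT livers ran from 1335 over 2655 to 2759 CPM under vehicle and from 3700 over 4330 to 4690 CPM under WY. Its HZ livers ran from 331 over 1267 to 2477 CPM under vehicle and from 3285 over 3832 to 4564 CPM under WY. No WY liver overlapped with a vehicle liver of its genotype, and the same WT animals, 31 and 37, were lowest under vehicle for both Cyp4a14 and Cyp4a10. The log2 fold change with WY was 0.90 ± 0.25 in WT (1.87-fold, adjusted p = 0.00315) and 1.60 ± 0.25 in HZ (3.02-fold, adjusted p = 6.25e-06).

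Cyp4a31 and Cyp4a32, close copies of Cyp4a10 with far fewer uniquely placed reads, also rose. WT livers held Cyp4a31 at 104 ± 37.4 CPM under vehicle and 197 ± 34.9 CPM under WY (SD, n = 7), and HZ livers at 59.0 ± 30.2 and 190 ± 30.0 CPM. It rose by 0.91 ± 0.26 on the log2 scale in WT (adjusted p = 0.0051) and by 1.69 ± 0.27 in HZ (adjusted p = 9.12e-06), with no overlap between WY and vehicle livers in HZ. In WT its groups touched, with the highest vehicle and the lowest WY liver both at 152 CPM. For Cyp4a32 the values were 80.2 ± 37.3 and 135 ± 12.8 CPM in WT and 48.5 ± 18.2 and 125 ± 18.2 CPM in HZ livers. It rose by 0.75 ± 0.23 in WT (adjusted p = 0.00662) and by 1.36 ± 0.23 in HZ (adjusted p = 1.6e-05), and its groups overlapped in WT, where 1 vehicle liver reached 150 CPM. Without vehicle animals 71 to 78 its rise in WT was 1.24 (adjusted p = 6.07e-06). Groups did not overlap between WY and vehicle for 4 of the 10 genes in WT (Cyp4a10, Cyp4a14, Cyp4f14 and, by a margin below the rounding, Cyp4a31; 27.7% of all genes) and for 5 in HZ (these 4 and Cyp4a32; 22.5% of all genes). With the reads of Cyp4a10, Cyp4a31 and Cyp4a32 summed, the rise was 0.90 ± 0.24 in WT and 1.59 ± 0.25 in HZ.

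**Figure D2:**
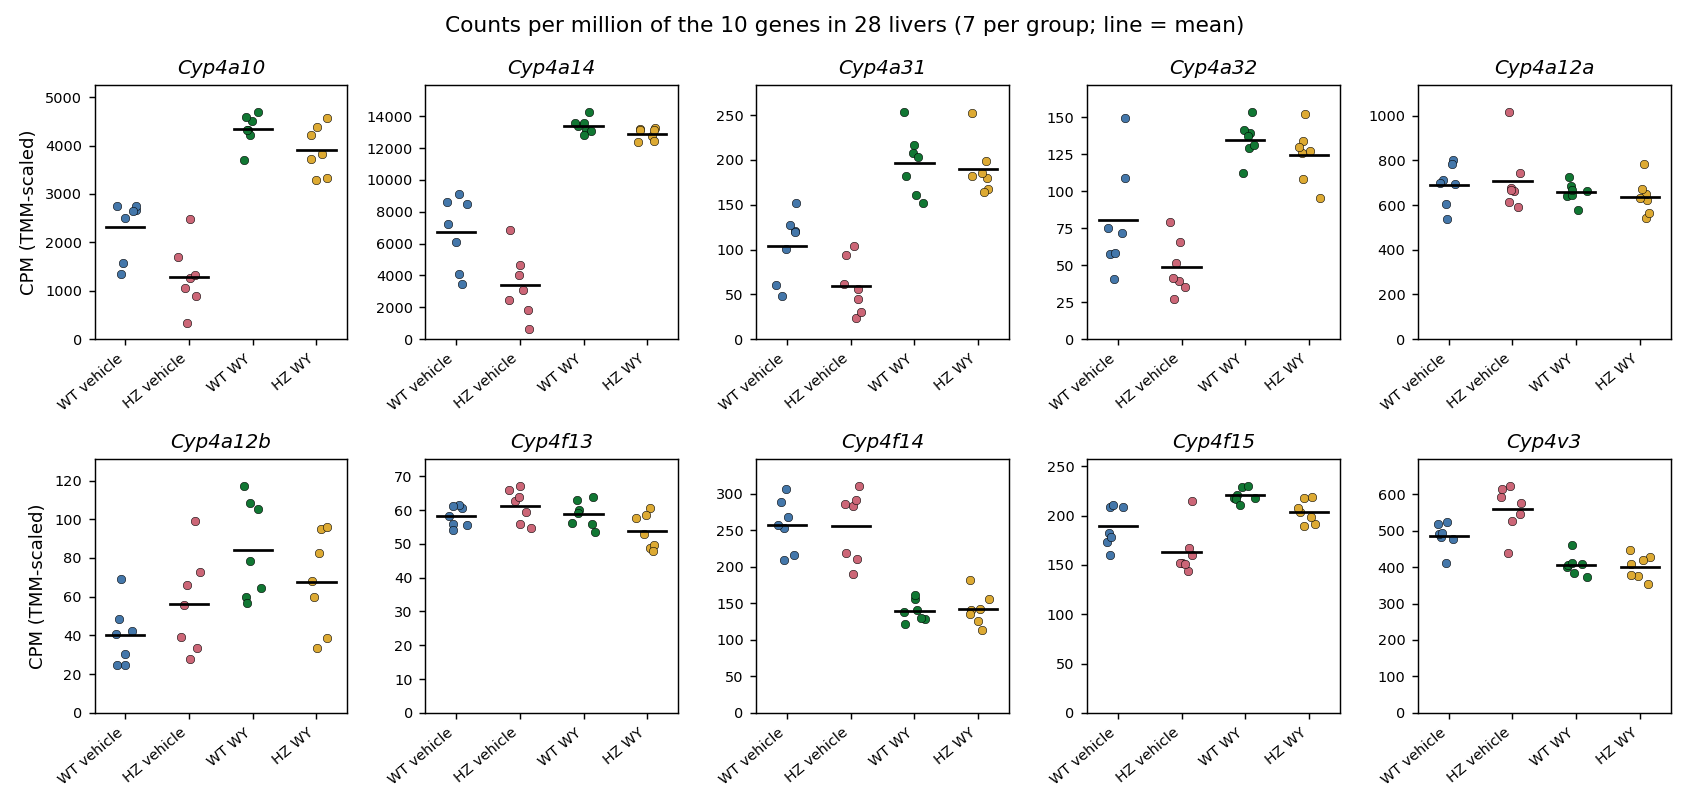
CPM of the 10 genes in each of the 28 livers, 1 point per liver on a linear axis from 0, with the group mean as a line. WY livers lie together above the vehicle livers for Cyp4a10, Cyp4a14 and Cyp4a31 and below them for Cyp4f14, and for Cyp4a14 the vehicle livers are spread far more widely than the WY livers.

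The difference between the genotypes under vehicle went the same way in these 4 genes, with lower means in HZ livers, and in none of them did it pass. Under vehicle 5 of 7 HZ livers lay below every WT liver for Cyp4a10 and 4 of 7 for Cyp4a14, and the genotypes overlapped in all 10 genes (groups did not overlap for 0.270% of all genes). HZ against WT was -0.996 ± 0.30 for Cyp4a14 on the log2 scale (95% interval -1.61 to -0.38, adjusted p = 0.0737) and -0.84 ± 0.25 for Cyp4a10 (-1.35 to -0.33, adjusted p = 0.0691). It was -0.82 ± 0.27 for Cyp4a31 (adjusted p = 0.103) and -0.73 ± 0.23 for Cyp4a32 (adjusted p = 0.0893), the latter at -0.39 (adjusted p = 0.365) without animals 71 to 78. By edgeR 0 of the 10 genes passed under vehicle, where 2.07% of all genes did (0.301% higher and 1.77% lower). At an unadjusted p below 0.05 there were 6 (Cyp4a10, Cyp4a14, Cyp4a31, Cyp4a32, Cyp4f15 and Cyp4v3), beside 17.9% of all genes. DESeq2 called 4 lower (Cyp4a10, Cyp4a14, Cyp4a31 and Cyp4a32), with 2.63% of the 19225 genes it was given called in either direction. The test of limma with voom called these 4 and Cyp4f15, with 5.78% of 12607 genes called. In an edgeR fit of the vehicle groups alone 0 of the 10 genes passed, and 0 of all 12277 genes tested there. Cyp4a14 was then at -0.99 ± 0.40 (adjusted p = 0.28) and Cyp4a10 at -0.84 ± 0.33 (adjusted p = 0.266). The calls in the edgeR fit of all 4 groups turned on single livers. Cyp4a10, Cyp4a14 and Cyp4a31 passed without WT animal 31, WT animal 37, HZ animal 34 or HZ animal 71, and Cyp4a32 passed without animal 31 or 71. Without animal 34, the highest HZ vehicle liver for Cyp4a14, Cyp4a14 was at -1.27 (adjusted p = 0.0191), and over the 14 vehicle livers left out in turn its adjusted p ran from 0.0191 to 0.158. Without the 5 HZ livers that stood apart, the difference of Cyp4a14 was -0.83 (adjusted p = 0.214) and that of Cyp4a10 was -0.65 (adjusted p = 0.224). A score of circadian clock genes (mean log2 CPM of Arntl, Npas2 and Clock minus that of Dbp, Tef, Nr1d1, Nr1d2, Per2 and Per3) correlated with Cyp4a14 at r = 0.51 and with Cyp4f15 at r = 0.73 over the 14 vehicle livers, as deviations from the group means. With that score as a covariate the difference of Cyp4a14 was -0.89 (adjusted p = 0.149).

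Under WY the fitted differences between genotypes were nearer to 0 in the same genes. HZ against WT was -0.06 for Cyp4a14 (95% interval -0.66 to 0.55), -0.15 for Cyp4a10 (-0.66 to 0.35), -0.05 for Cyp4a31 (-0.59 to 0.49) and -0.11 for Cyp4a32 (-0.57 to 0.35) on the log2 scale. These intervals rest on a spread shared by all 4 groups. The log2 CPM of Cyp4a14 had an SD of 0.05 in WT WY and 0.04 in HZ WY livers, against 0.55 and 1.13 under vehicle. In an edgeR fit of the WY groups alone its difference was -0.05 ± 0.05 (adjusted p = 0.54). That of Cyp4a10 was -0.14 ± 0.08 (adjusted p = 0.259). With the clock score as a covariate HZ against WT under WY was -0.30 for Cyp4a14 (adjusted p = 0.594) and -0.43 for Cyp4a10 (adjusted p = 0.314). It was -0.22 for Cyp4a31 and -0.32 for Cyp4a32, against -0.89, -0.73, -0.76 and -0.66 under vehicle in that fit. The fit has 1 slope on the score for all groups. Over the 14 WY livers the score correlated with the 4 genes in this order at r = -0.27, 0.45, -0.47 and -0.16. Over the 14 vehicle livers r was 0.51, 0.51, 0.61 and 0.51. The median score was -3.31 in WT WY and -1.53 in HZ WY livers. A separate slope under WY was not tested. By edgeR 0 of 10 genes passed under WY, where 3.16% of all genes did (1.42% higher and 1.74% lower), and 1 of 10 (Cyp4f13) had an unadjusted p below 0.05, beside 24.1% of all genes. The genotypes overlapped in all 10 genes here as well (groups did not overlap for 1.35% of all genes). The interaction, the WY response of HZ minus that of WT, was 0.94 ± 0.42 for Cyp4a14 (unadjusted p = 0.0331, adjusted p = 0.506), 0.69 ± 0.35 for Cyp4a10 (adjusted p = 0.541), 0.78 ± 0.37 for Cyp4a31 (adjusted p = 0.529) and 0.61 ± 0.32 for Cyp4a32 (adjusted p = 0.553). No gene of the 12607 passed for the interaction by edgeR (0%), with 1182 (9.38%) at an unadjusted p below 0.05, of which 4 were of the family (Cyp4a14, Cyp4a31, Cyp4f13 and Cyp4v3), and with 3 genes called by DESeq2 (0.0156%) and 1 by limma with voom (0.00793%). With the clock score the interaction was 0.59 for Cyp4a14 and 0.30 for Cyp4a10. The larger WY response of HZ livers is thus not shown to differ from that of WT livers. The 2 WY responses and the 2 genotype differences share groups with each other.

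**Figure D3:**
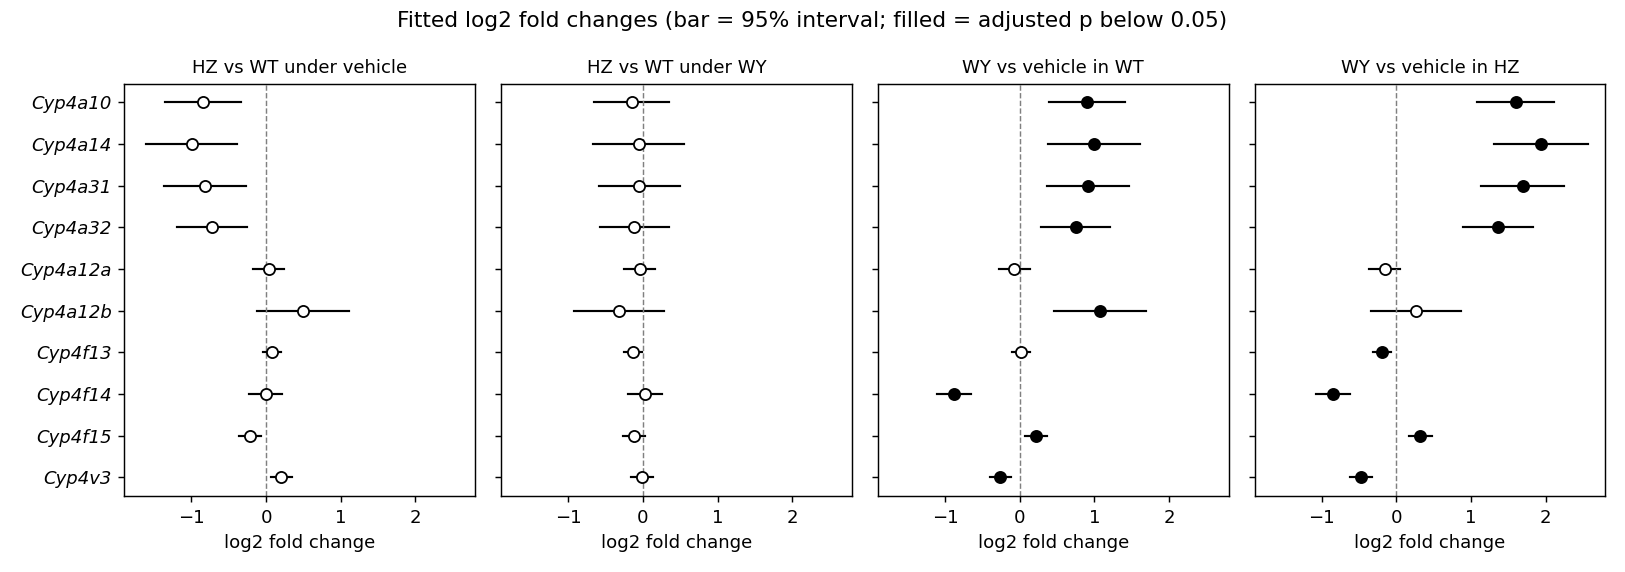
Fitted log2 fold changes of the 10 genes in 4 comparisons, with 95% intervals as bars and filled points where the adjusted p was below 0.05. Filled points appear in the 2 WY comparisons, 8 in each, and in neither genotype comparison.

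From animal to animal Cyp4a10, Cyp4a14, Cyp4a31 and Cyp4a32 varied together in the vehicle livers. As deviations of log2 CPM from the group means over 28 livers, Cyp4a10 correlated with Cyp4a14 at r = 0.94, with Cyp4a31 at r = 0.84 and with Cyp4a32 at r = 0.63. Over the 14 vehicle livers these values were 0.96, 0.90 and 0.70, and over the 14 WY livers they were 0.35, 0.06 and -0.33. Other pairs reached like values, such as Cyp4a32 with Cyp4f15 (r = 0.65 over 28 livers) and Cyp4a12a with Cyp4a31 (0.72 over the vehicle and -0.44 over the WY livers). These values are descriptions. The genes share libraries and depth, and Cyp4a10, Cyp4a31 and Cyp4a32 share sequence. Under vehicle Cyp4a14 gave 2.87 ± 0.478 counts per Cyp4a10 count in WT and 2.48 ± 0.505 in HZ livers, and under WY it gave 3.10 ± 0.228 and 3.34 ± 0.407 (SD, n = 7).

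**Figure D4:**
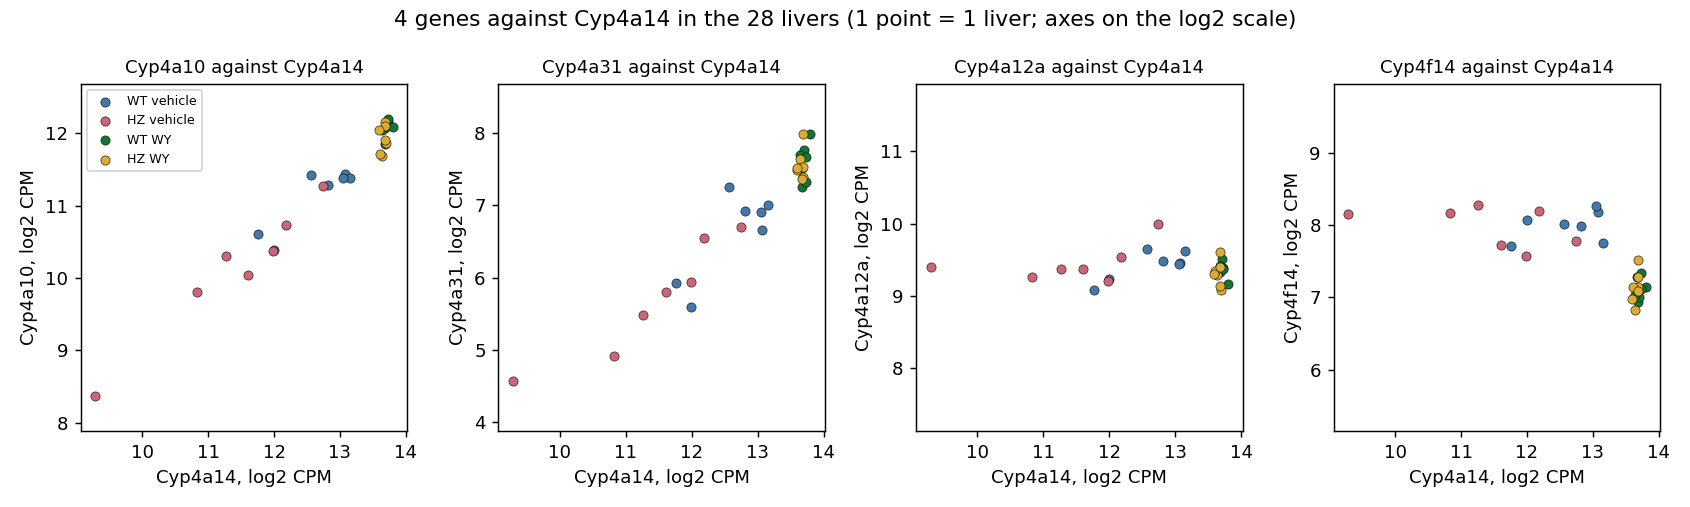
Cyp4a10, Cyp4a31, Cyp4a12a and Cyp4f14 against Cyp4a14, both on the log2 CPM scale, with 1 point per liver. Cyp4a10 and Cyp4a31 rise along with Cyp4a14 from vehicle to WY livers, and HZ and WT livers overlap within vehicle. Cyp4a12a stays near one level, and Cyp4f14 lies lower in the WY livers, where Cyp4a14 is highest.

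Cyp4a12a, the male-predominant and androgen-dependent member that makes hydroxylated arachidonic acid, did not pass in any comparison. In WT livers it ran from 540 over 701 to 802 CPM under vehicle and from 577 over 663 to 727 CPM under WY. In HZ livers it ran from 589 over 666 to 1016 CPM under vehicle and from 542 over 630 to 783 CPM under WY. All 4 groups overlapped. The log2 fold change with WY was -0.07 ± 0.10 in WT (95% interval -0.28 to 0.14) and -0.15 ± 0.10 in HZ (-0.36 to 0.05), so that a rise of the size seen in Cyp4a10 lies outside both intervals. Between genotypes it was 0.04 ± 0.10 under vehicle and -0.04 ± 0.10 under WY.

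Cyp4a12b, its near-identical copy, was counted at 24.5 to 68.9 CPM under vehicle and 56.5 to 117 CPM under WY in WT livers, and at 27.8 to 99.1 and 33.6 to 95.9 CPM in HZ livers. It passed as higher with WY in WT (1.08 ± 0.30, adjusted p = 0.00355) and did not pass in HZ (0.26 ± 0.29, adjusted p = 0.469), and the interaction was -0.81 ± 0.42 (adjusted p = 0.55). With the reads of both copies summed the WT value was 0.02 ± 0.10 (adjusted p = 0.878) and the HZ value -0.12 ± 0.10 (adjusted p = 0.333). Most reads of the sum are of Cyp4a12a, so the sum follows that gene and cannot test the call of Cyp4a12b. In WT livers there were 19.2 ± 6.83 Cyp4a12a counts per Cyp4a12b count under vehicle and 8.42 ± 2.5 under WY, and in HZ livers 14.8 ± 6.17 and 10.9 ± 5.03 (SD, n = 7). The levels of the 2 copies correlated at r = 0.19 over the 28 livers, and those of Cyp4a12b and Cyp4f14 at r = -0.68, as deviations from the group means.

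The 3 Cyp4f genes each did something else under WY. Cyp4f14, known as a hydroxylase of leukotriene B4, fell in both genotypes. It ran from 210 over 258 to 307 CPM in WT vehicle and from 190 over 284 to 311 CPM in HZ vehicle livers, and from 122 over 138 to 161 and from 113 over 141 to 182 CPM in the WY livers of WT and HZ. No WY liver overlapped with a vehicle liver. The log2 fold change was -0.88 ± 0.11 in WT (1.84-fold lower, adjusted p = 1.36e-07) and -0.85 ± 0.11 in HZ (1.80-fold lower, adjusted p = 2.26e-07), and these were the smallest p-values among the 10 genes in both WY comparisons. Between genotypes its difference was -0.01 ± 0.11 under vehicle (95% interval -0.23 to 0.22) and 0.03 ± 0.11 under WY.

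Cyp4f15, its closest relative by sequence, rose. In WT livers it ran from 160 over 182 to 211 CPM under vehicle and from 211 over 218 to 230 CPM under WY. In HZ livers it ran from 144 over 152 to 214 CPM under vehicle and from 189 over 203 to 219 CPM under WY. The rise was 0.22 ± 0.07 in WT (1.17-fold, adjusted p = 0.0106) and 0.32 ± 0.07 in HZ (1.25-fold, adjusted p = 0.000394), with overlapping groups in both. Without vehicle animals 71 to 78 the rise in WT was 0.34 (adjusted p = 2.27e-05). Cyp4f15 gave 0.742 ± 0.0873 counts per Cyp4f14 count in WT vehicle and 0.651 ± 0.124 in HZ vehicle livers, against 1.59 ± 0.170 and 1.46 ± 0.207 in WY livers of WT and HZ (SD, n = 7). The ratio was below 1 in all 14 vehicle livers and above 1 in all 14 WY livers. Under vehicle HZ against WT was -0.21 ± 0.07 (adjusted p = 0.114), with 5 of 7 HZ livers below every WT liver and HZ animal 71 above every WT liver. Of the 5, HZ animal 30 was below by a margin under the rounding, with it and WT animal 31 both at 160 CPM. Over the 14 vehicle livers left out in turn the adjusted p ran from 0.00471 to 0.257. The difference passed only without HZ animal 71 (-0.29, adjusted p = 0.00471) or WT animal 31 (-0.25, adjusted p = 0.0414).

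Cyp4f13, which lies beside Cyp4f14 on the same strand, was at 58.2 ± 3.02 CPM under vehicle and 58.8 ± 3.80 CPM under WY in WT livers (SD, n = 7). In HZ livers it was at 61.4 ± 4.90 and 53.8 ± 5.13 CPM. With WY it was at 0.02 ± 0.06 in WT (95% interval -0.11 to 0.14) and fell by 0.19 on the log2 scale in HZ (SE 0.06, adjusted p = 0.00761), with overlapping groups and an interaction of -0.21 ± 0.08 (adjusted p = 0.467). The difference between its 2 WY responses is therefore not shown.

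Cyp4v3 is the mouse counterpart of human CYP4V2, an omega-hydroxylase of medium chain and polyunsaturated fatty acids. In WT livers it ran from 410 over 491 to 525 CPM under vehicle and from 374 over 405 to 460 CPM under WY. In HZ livers it ran from 438 over 575 to 623 CPM under vehicle and from 353 over 408 to 446 CPM under WY. It fell with WY by 0.26 on the log2 scale in WT (SE 0.07, adjusted p = 0.00303) and by 0.48 in HZ (SE 0.07, adjusted p = 1.71e-06). Under vehicle 6 of 7 HZ livers lay above every WT liver, the direction opposite to that of Cyp4a14. That difference was 0.21 ± 0.07 (95% interval 0.06 to 0.35, adjusted p = 0.123). Of 14 vehicle livers left out in turn, it passed only without HZ animal 30, at 0.26 (adjusted p = 0.0461). Its adjusted p otherwise ran up to 0.295. The interaction was -0.22 ± 0.10 (adjusted p = 0.509).

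While Cyp4f14 and Cyp4v3 fell, so did 4 of the 5 hepatocyte markers and 4 of 4 periportal markers in each genotype, where 26.7% of all genes fell in WT and 26.4% in HZ. Of the 5 pericentral markers 2 rose and 2 fell in WT, and 1 rose and 3 fell in HZ. Those that rose were Glul in WT (0.23 ± 0.08, adjusted p = 0.0161) and Axin2 in WT (0.52 ± 0.17, adjusted p = 0.0106) and HZ (1.53 ± 0.17, adjusted p = 1.98e-08). Alb was at -0.42 ± 0.13 in WT (adjusted p = 0.00751) and -0.50 ± 0.13 in HZ (adjusted p = 0.00203). The summed hepatocyte markers ran from 83977 to 109050 CPM in WT vehicle and from 65809 to 77537 CPM in WT WY livers, and from 71355 to 109214 and 44628 to 82895 CPM in the HZ groups. The part of these changes in the levels of Cyp4f14 and Cyp4v3 was not tested, and in bulk tissue fewer cells of a type and less RNA per cell cannot be told apart.

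Windows of 250 bases before the RefSeq start sites were at hand for 5 of the genes (Cyp4a32, Cyp4f13, Cyp4f14, Cyp4f15 and Cyp4v3, GRCm38.p6). The windows of Cyp4a32, which rose with WY, and of Cyp4f14, which fell, are shown as the pair that moved in opposite directions. They are chr4:115600688-115600937 on the plus strand and chr17:32917343-32917592 on the minus strand.
Cyp4a32: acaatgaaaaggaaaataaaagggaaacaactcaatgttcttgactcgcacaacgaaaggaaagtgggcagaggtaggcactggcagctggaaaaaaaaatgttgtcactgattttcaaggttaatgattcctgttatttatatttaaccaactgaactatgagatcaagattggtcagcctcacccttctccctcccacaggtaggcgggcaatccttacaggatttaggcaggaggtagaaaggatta
Cyp4f14: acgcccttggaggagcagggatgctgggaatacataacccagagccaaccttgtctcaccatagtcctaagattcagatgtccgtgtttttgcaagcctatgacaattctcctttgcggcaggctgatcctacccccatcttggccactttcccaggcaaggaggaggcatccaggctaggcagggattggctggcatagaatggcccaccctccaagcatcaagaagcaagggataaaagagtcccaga
The core motif of nuclear receptors, AGGTCA, and the direct repeat AGGTCANAGGTCA, to which PPARα binds with RXR, were searched on both strands; an exact match to the repeat also holds the core motif, while a match with mismatches need not. None of the 5 genes had an exact AGGTCA or a repeat with up to 2 mismatches in these windows. Over the same 250 bases of 32851 RefSeq windows the shares were 14.0% and 3.24%. With 3 mismatches Cyp4a32 and Cyp4v3 had a match to the repeat, as did 21.3% of all windows. These letters not being in the windows says nothing of the factor elsewhere at the genes.

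The steps before and after omega-hydroxylation were followed in lists of genes. Their counts are to be read against all tested genes, of which 27.4% rose and 26.7% fell with WY in WT and 29.3% rose and 26.4% fell in HZ. Of 8 tested genes of electron supply and haem, 2 rose and 0 fell with WY in WT, and 3 rose and 2 fell in HZ, with list medians of -0.01 and 0.12 against -0.02 and 0.01 over all genes. Por, the reductase that feeds microsomal P450s, rose from 388 ± 64.6 to 694 ± 114 CPM in WT (0.84 ± 0.14, adjusted p = 1.23e-05) and from 352 ± 80.2 to 556 ± 123 CPM in HZ (0.66 ± 0.14, adjusted p = 0.000218). Cyb5r1, a cytochrome b5 reductase, rose by 0.45 ± 0.14 in WT (adjusted p = 0.0068), and Pgrmc2, a haem-binding membrane protein, rose by 0.47 ± 0.11 in HZ (adjusted p = 0.000489). No gene of this list passed between genotypes (0 of 8 under vehicle and under WY).

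Of 9 tested alcohol and aldehyde dehydrogenases, 1 rose and 3 fell with WY in WT, and 2 rose and 5 fell in HZ, with list medians of -0.13 and -0.26. The 3 that fell in WT are near the share of all genes. Aldh3a2, the microsomal fatty aldehyde dehydrogenase that completes omega-oxidation, rose from 890 ± 296 to 1864 ± 285 CPM in WT (1.07 ± 0.20, adjusted p = 5.13e-05) and from 538 ± 172 to 1694 ± 285 CPM in HZ (1.65 ± 0.20, adjusted p = 9.84e-08). It was also the 1 gene of the list that passed between genotypes under vehicle (-0.73 ± 0.20, adjusted p = 0.0486). That call was lost in the fit of the vehicle groups alone, where 0 genes were called. Aldh1b1, a mitochondrial aldehyde dehydrogenase, fell by 0.84 in WT (SE 0.13, adjusted p = 3.46e-06), and Adh4 fell by 0.79 in HZ (SE 0.12, adjusted p = 1.36e-06).

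Of 16 tested genes listed for the transport, activation and peroxisomal oxidation of dicarboxylic acids, 13 rose and 1 fell with WY in WT. In HZ 14 rose and 2 fell, and the list medians were 0.65 in WT and 1.35 in HZ. The list is not confined to steps of dicarboxylic acids and includes Decr2 and Pex11a. Acaa1a, a peroxisomal thiolase, rose by 1.35 ± 0.07 in WT (adjusted p = 7.7e-14) and by 1.36 ± 0.07 in HZ (adjusted p = 6.17e-14). Acot8, a peroxisomal thioesterase, rose by 1.37 ± 0.12 in WT (adjusted p = 8.93e-10) and by 1.72 ± 0.13 in HZ (adjusted p = 3.06e-11). Under vehicle 0 were higher and 9 lower in HZ against WT, where 0.301% of all genes were higher and 1.77% lower. The list median was -0.56 against -0.0014 over all genes. Among the 9, Decr2, a peroxisomal dienoyl-CoA reductase, was at -0.42 ± 0.07 (adjusted p = 0.00696) and Pex11a, a factor of peroxisome division, at -1.25 ± 0.25 (adjusted p = 0.0144). All 9 calls were lost with only the groups compared, without vehicle animals 71 to 78 and without 5 HZ libraries. Each of these fits called 0 genes under vehicle. Under WY 1 was higher and 1 lower in HZ, with a list median of -0.10, where 1.42% of all genes were higher and 1.74% lower.

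Of 11 tested regulators of the family, 0 rose and 4 fell with WY in each genotype, near the share of all genes that fell (26.7% in WT and 26.4% in HZ). The largest fall was that of the coactivator gene Ppargc1a, which fell by 2.01 in WT (SE 0.27, adjusted p = 7.45e-07) and by 2.17 in HZ (SE 0.26, adjusted p = 1.28e-07). The growth hormone receptor gene Ghr fell by 0.75 in WT (SE 0.08, adjusted p = 2.23e-08) and by 0.88 in HZ (SE 0.08, adjusted p = 1.1e-09). Ppara, which encodes the receptor that WY binds, was the 1 gene of the list lower in HZ under vehicle, at 438 ± 55.0 against 561 ± 80.8 CPM in WT (-0.36 ± 0.09, adjusted p = 0.0442), and its difference under WY was -0.01 ± 0.09. Its vehicle call was lost in the fit of the vehicle groups alone, where 0 genes were called. Under WY the 1 gene of the list that passed between genotypes was Stat5b, a transcription factor of growth hormone signalling, which was higher in HZ (0.26 ± 0.07, adjusted p = 0.0315).

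Among 9 tested genes that, like Cyp4a12a, are male-predominant in mouse liver, 1 rose and 3 fell with WY in WT and 1 rose and 7 fell in HZ. The count that fell in WT is near the share of all genes (26.7%), and the share over all genes in HZ was 26.4%. Slco1a1, an organic anion transporter, fell by 1.10 in WT (SE 0.13, adjusted p = 8.95e-08) and by 1.43 in HZ (SE 0.14, adjusted p = 1.01e-09), while Cyp4a12a was at -0.07 and -0.15. The complement gene C6 fell by 0.52 in WT (SE 0.14, adjusted p = 0.00261), and Hsd3b5, a steroid dehydrogenase, fell by 1.80 in HZ (SE 0.34, adjusted p = 8.36e-05). Between genotypes 0 of the 9 passed under vehicle or WY. Of the 10 female-predominant genes listed, 8 were too low to be tested. Acot3, a peroxisomal thioesterase of that list, rose with WY from 62.7 ± 35.5 to 221 ± 41.8 CPM in WT (1.82 ± 0.51, adjusted p = 0.0043) and from 10.2 ± 11.4 to 172 ± 36.8 CPM in HZ (4.08 ± 0.58, adjusted p = 1.72e-06). It also passed as lower in HZ under vehicle (-2.63 ± 0.55, adjusted p = 0.0181), a call that was lost in the fit of the vehicle groups alone. The other tested gene, Cyp2a4, passed in neither WY comparison.

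The other 10 genes with a Cyp4 symbol summed to no more than 59.4 CPM per liver, and 4 could be tested. Cyp4f17 rose by 0.90 ± 0.19 in WT (adjusted p = 0.000277) and by 1.46 ± 0.20 in HZ (adjusted p = 5.05e-07). Cyp4f39 (1.74 ± 0.44, adjusted p = 0.00127) and Cyp4b1 (0.16 ± 0.06, adjusted p = 0.0246) rose in HZ. None of the 4 passed between genotypes.

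The genes outside the family whose animal-to-animal variation was most like that of a member differed between members. Likeness is Pearson's r of log2 CPM deviations from the group means over 28 livers, among 8924 genes. For Cyp4a14 the 5 nearest were Ehhadh (r = 0.95), the bifunctional enzyme of peroxisomal beta-oxidation, Fbp2 (0.94), Slc27a2 (0.93), Acaa1b (0.92) and Hadha (0.91). For Cyp4a10 they were Chrna2 (0.89), Retsat (0.89), Decr2 (0.88), Slc27a2 (0.88) and Ehhadh (0.88). These values rest on the vehicle livers: for Cyp4a14 and Ehhadh r was 0.96 over 14 vehicle and 0.42 over 14 WY livers, and for Cyp4a10 and Chrna2 0.94 and 0.18. For Cyp4f14 the nearest were Pipox (0.81), Ces1g (0.81), Cyp2a12 (0.79), Lipg (0.79) and Pon1 (0.77), and here Pipox gave r = 0.81 over vehicle and 0.82 over WY livers. For Cyp4a12a they were Arpp19 (0.84), Srxn1 (0.77), St7 (0.73), Gstm4 (0.72) and Abhd6 (0.70), with Arpp19 at 0.80 over vehicle and 0.94 over WY livers. For Cyp4v3 they were Tbcel (0.69), Serpina12 (0.69), Slc39a4 (0.67), Hsd17b13 (0.66) and Olfml1 (0.66).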

How the data were processed

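The authors deposited read counts for each gene symbol without normalization, the 14 vehicle and the 14 WY libraries in separate tables. Per the labels, Trizol was used on frozen liver, and 1 ug of total RNA entered a NEBNext Ultra library. Per the submitters' processing notes, STAR 2.5.0a, HTSeq 0.6.1p1, DESeq2 1.18.1 and mm10 were used. The sources used here do not give the annotation, strand setting or read length. Of all entries, 35.8 to 42.6% per library were reads not placed uniquely, which reach no gene. The 5 summary rows of each table and the rows whose symbols had become dates (25 and 27) were left out.

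Counts were analysed in R 4.3.3 with edgeR 4.0.16: filterByExpr, TMM, and a robust quasi-likelihood fit of 4 group means to all 28 libraries (24 residual degrees of freedom), with p adjusted by Benjamini-Hochberg over 12607 genes and calls at 0.05. The same fit was tested on simulated data, drawn with 1 spread per gene for all 4 groups. That test does not cover a spread that differs between groups, as that of Cyp4a14 does. Each library is 1 numbered animal. No number occurs in more than 1 group. The alternatives were DESeq2 1.42.0 and its size factors, limma 3.58.1 with voom, other filters on low counts, only the groups compared, close copies summed, animals 71 to 78 left out or fitted as a term, a clock score as covariate, each library left out and, chosen after seeing the data, 5 HZ libraries left out. The 10 genes and all lists were chosen with earlier results of these data known. From each list the text names the 2 called genes with the smallest p. Likeness was searched for 5 of the 10 genes, among genes with a mean of at least 5 CPM. Promoter windows are RefSeq's on GRCm38.p6 and transcripts are those of GENCODE M21.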

Additional observations from a re-analysis of the deposited data

Results flagged for a closer look

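In 3 of 40 sets of 7 livers (10 genes in 4 groups), 1 liver stood apart on the log2 CPM scale by Dixon's criterion, the gap to the nearest liver over the range of the group. Chance flags about 1 in 20 such sets. Cyp4a12a was highest in the vehicle liver of HZ animal 34, at 1016 CPM against 743 CPM in the next liver (ratio 0.575). The same animal had the highest Cyp4a10, Cyp4a14 and Cyp4a31 of its group. Cyp4f15 was highest in the vehicle liver of HZ animal 71, at 214 CPM against 167 CPM in the next (ratio 0.621), and this animal also had the highest Cyp4a32 and Cyp4f13 of its group. Cyp4v3 was lowest in the vehicle liver of WT animal 29, at 410 CPM against 476 CPM in the next (ratio 0.606).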

How the results depend on the processing

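No paired analysis was possible because animal numbers served as replicate numbers and none occurs in more than 1 group. The counts of called genes under WY, 8 of 10 in each genotype, held under every alternative except the summing of close copies, which left 5 called features of 7 in WT and 6 of 7 in HZ (3 called genes were merged into 1, and in WT the sum of Cyp4a12a and Cyp4a12b did not pass). They stayed at 8 with each of 14 libraries left out. HZ against WT under vehicle gave 0 called genes in the main fit, 4 with DESeq2 and 5 with limma voom, and 0 to 5 with 1 library left out (43 to 650 genes of all). With only the groups compared, without animals 71 to 78 and without 5 HZ libraries, 0 of all genes were called under vehicle. The vehicle calls of Sirt6, Aldh3a2, Ppara, Acot3, Decr2 and Pex11a were thus lost there. HZ against WT under WY and the interaction stayed at 0 with 1 library left out (0 to 0). Of 540 values of single genes under the alternatives, 514 kept direction and side of the threshold and 9 passed newly. Another 1 was lost (Cyp4a12b in WT with copies summed, 0.02), and 16 changed sign, each with an adjusted p above 0.05. With copies summed, the value given for Cyp4a12b is that of the sum, made mostly of Cyp4a12a reads. On the log2 scale Cyp4f14 under vehicle was at 0.0060 (only the groups compared), 0.026 (without animals 71 to 78), 0.013 (mean of at least 5 CPM), 0.043 (a term for them), 0.011 (clock score) and 0.036 (without 5 HZ libraries). Its interaction was -0.014 (term) and -0.028 (clock score), and its value under WY was -0.017 (clock score). Cyp4v3 under WY was at 0.019 (clock score) and 0.033 (without 5 HZ libraries), and the interaction of Cyp4f15 was -0.019 (clock score). Cyp4a12a was at -0.046 under vehicle (limma voom), 0.056 under WY (without 5 HZ libraries) and 0.021 for WY in WT (copies summed), and Cyp4a12b at -0.12 for WY in HZ (copies summed). With 1 library left out, 802 of 840 values kept direction and call, 17 passed newly, all for HZ against WT under vehicle, and 21 changed sign. The ranges of the sign changes were -0.059 to 0.054 for Cyp4f14 and -0.071 to 0.077 for Cyp4a12a under vehicle, -0.040 to 0.078 for Cyp4f14, -0.044 to 0.019 for Cyp4v3 and -0.13 to 0.022 for Cyp4a31 under WY, -0.0053 to 0.037 for Cyp4f13 with WY in WT, and -0.034 to 0.088 for Cyp4f14 and -0.14 to 0.027 for Cyp4a12a in the interaction. The causes of these changes were not tested. The longest transcript in place of all exons moved the level per kb of Cyp4f13 from 13.1 to 33.2 in WT vehicle livers. Cyp4a12b, with 428 to 2215 counts per library, had an SD of 30.3 to 44.8% of its group means, against 5.19 to 9.54% for Cyp4f13 with 833 to 1285 counts. The unknown read length limits what can be said of all close copies.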
